A study of Mus musculus with 12 samples.

Results

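The genes described here make ribosomes. They are 35 nucleolar and ribosome assembly factors, chosen by name: factors of the small nucleolar ribonucleoproteins (snoRNPs), nucleolar chaperones, assembly factors of both ribosomal subunits, and RNA polymerase I with its factor Ubtf. Of the 35 genes, 32 had at least 1 probe set that the array's annotation gives to that symbol, 46 probe sets of 12488 in all, and 29 were bright enough to be tested among 6400 features. The expression of Dkc1, Nop14 and Npm3 was not analysed here, though their promoters were read. Nolc1, Surf6 and Wdr12 were dimmer than the filter.

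The study compared tumors with normal intestine of male Min/+ mice at 91 days of age. The Min allele is a mutation of the tumor suppressor gene Apc that leads to adenomas of the intestine, and every sample in both tissues was Min/+. There were 6 tumor arrays and 6 normal intestine arrays (Affymetrix MG_U74Av2, 1 array per RNA sample). Each tissue held 1 Dnmt+/- and 1 Dnmt+/+ array on each of diet #1, diet #2 and diet #3. The labels do not say which DNA methyltransferase gene Dnmt stands for, or what the diets contain. A code in the labels joins the tumor and the normal array of each diet and genotype into 6 pairs, without saying that a code is a single animal. P-values therefore measure the spread between these arrays, part of which may be technical, and the number of arrays limits the precision.

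Ribosome production starts in the nucleolus, where RNA polymerase I copies the ribosomal RNA genes into a long precursor. H/ACA snoRNPs convert chosen uridines of that precursor to pseudouridine, and C/D snoRNPs add methyl groups to its riboses. Assembly factors then fold and cut it while the ribosomal proteins bind, separately for the small and the large subunit. In the intestine, dividing crypt cells depend on this supply, and genes of ribosome production are known targets of the transcription factor Myc.

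The arrays differed in ways that touch the values below. On diet #1, the 4 arrays held unscaled deposited intensities (array means of 306 to 403, where every array of the other diets had 1000). Between 40.9% and 46% of their probe sets stood at a floor of 50, so diet #1 was not tested against the other diets. Values were quantile-normalized and are given as normalized intensity, on which the floor of 50 falls at 43.1 to 48.9. Pancreatic acinar markers summed to 4910 to 14080 on tumor arrays and to 9080 to 28389 on normal arrays of diets #1 and #3, but to 216149 and 233573 on those of diet #2, so the counts below were also taken without diet #2. Enterocyte markers were bright in both tissues, with summed levels of 98865 to 125792 in tumors and 98034 to 157856 in normal intestine. Of 9 enterocyte markers, 3 were lower in tumors and 1 was higher, although that gene, Anpep, no longer passed with median scaling.

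In tumors, 23 of the 29 tested assembly factors were higher than in normal intestine and 0 were lower (limma, Benjamini-Hochberg adjusted p under 0.05 over all 6400 features). Over all features, 18.2% were higher and 16.9% were lower by the same rule. The median difference (tumor minus normal, log2) was 0.72 for the factors and 0.0015 for all features. The difference was positive for 28 of the 29 factors and for 50.2% of all features. An unadjusted limma p under 0.05 was found for 25 factors and, in either direction, for 2844 of the 6400 features. At least a 2-fold increase was found for 9 of the 29 factors and for 4.67% of all features. Gnl3, Bysl and Nop2, which had normal arrays of diet #1 at the floor, were among the 9 but fell below 2-fold without diet #1. Without the diet #2 arrays, 16 factors were higher and 0 were lower, with a median of 0.73. In that fit, 21.3% of all features were called, counting both directions. In bulk tissue, more cells of a type and more RNA per cell cannot be told apart.

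**Figure D1:**
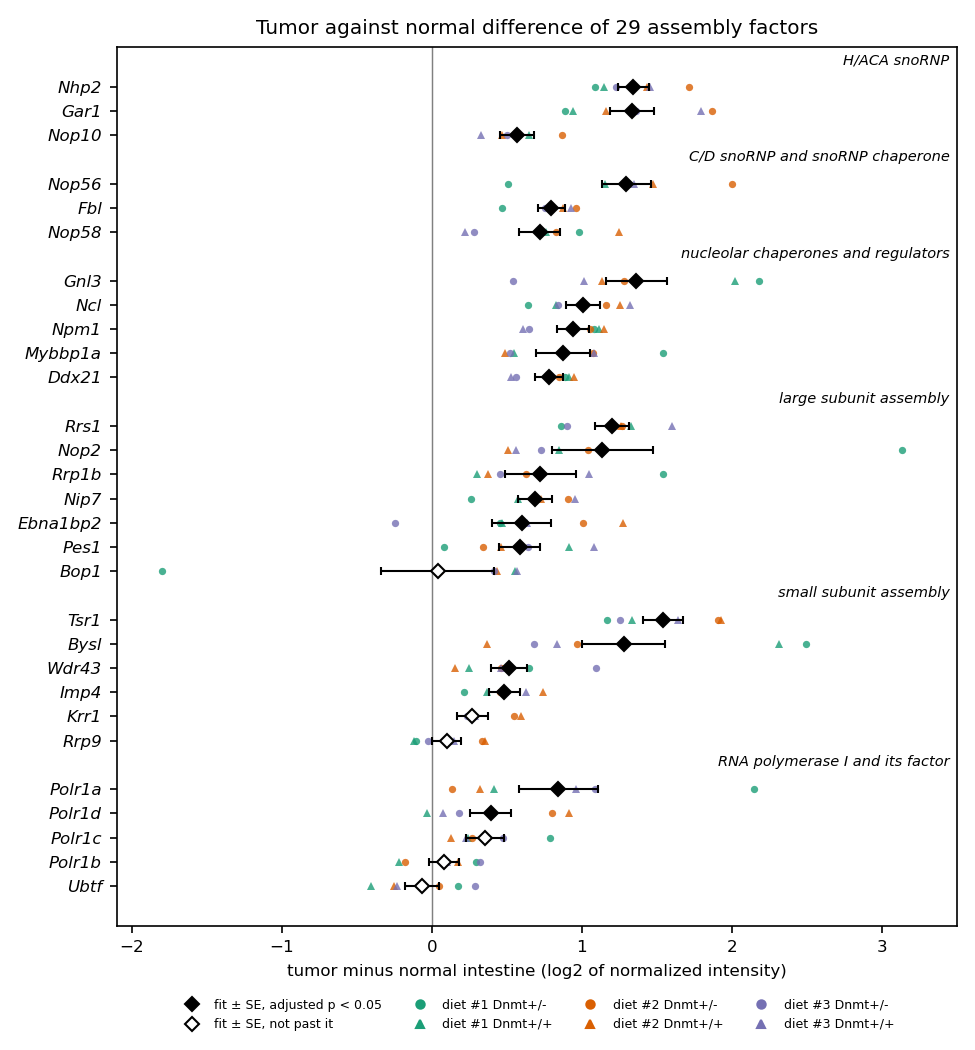
Tumor minus normal difference in log2 normalized intensity for 29 factors, grouped by role. Diamonds are the fitted difference ± SE (filled where adjusted p is under 0.05, 23 factors), and small symbols are the 6 code pairs by diet and genotype; pairs with both arrays at the floor (Krr1 on diet #1) are not drawn. Both snoRNP groups lie wholly to the right of 0, while Ubtf and Polr1b straddle it.

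Promoter sequences were read for the factors, since many of them moved together. The E-box CACGTG, which reads the same on both strands and is a binding sequence of Myc with its partner Max, was searched in the 300 bases from 250 before to 50 after each start (RefSeq, GRCm38.p6). It was present for 6 of 31 factors with a promoter in the table (19.4%), whether or not their expression was tested. The share was 12.4% of all tested genes with a promoter there and 8.09% of all genes in the table. The 6 holders were Tsr1, Nop2, Mybbp1a, Pes1, Wdr43 and Imp4. All 6 were among the 20 factors with a promoter that were higher in tumors (30.0%), while 0 of 5 tested factors that did not pass held it, a split that was not tested. The wider list of ribosome assembly genes held it in 19 of 96 (19.8%), a share like that of the factors, and over all genes, the share was 12.9% of those higher and 12.2% of those lower in tumors. A match is a run of letters, not a measured binding site. The 3 holders with the largest tumor difference are shown in their gene's direction, with the E-box in capitals. Tsr1 lies at chr11:74897830-74898129 (+ strand, E-box starting at +25), Nop2 at chr6:125131633-125131932 (+ strand, -60) and Mybbp1a at chr11:72441077-72441376 (+ strand, +41).
Tsr1: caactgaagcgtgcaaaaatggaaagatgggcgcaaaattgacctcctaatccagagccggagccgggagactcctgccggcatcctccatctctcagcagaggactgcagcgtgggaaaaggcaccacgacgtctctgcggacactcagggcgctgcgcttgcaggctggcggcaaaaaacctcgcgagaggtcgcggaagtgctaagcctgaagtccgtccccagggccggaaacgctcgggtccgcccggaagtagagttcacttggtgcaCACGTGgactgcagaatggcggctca
Nop2: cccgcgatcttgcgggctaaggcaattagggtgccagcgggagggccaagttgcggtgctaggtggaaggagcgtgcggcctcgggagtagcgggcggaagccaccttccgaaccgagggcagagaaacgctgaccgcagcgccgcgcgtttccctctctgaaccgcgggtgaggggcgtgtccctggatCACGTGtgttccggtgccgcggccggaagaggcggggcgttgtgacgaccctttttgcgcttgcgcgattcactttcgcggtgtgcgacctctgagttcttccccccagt
Mybbp1a: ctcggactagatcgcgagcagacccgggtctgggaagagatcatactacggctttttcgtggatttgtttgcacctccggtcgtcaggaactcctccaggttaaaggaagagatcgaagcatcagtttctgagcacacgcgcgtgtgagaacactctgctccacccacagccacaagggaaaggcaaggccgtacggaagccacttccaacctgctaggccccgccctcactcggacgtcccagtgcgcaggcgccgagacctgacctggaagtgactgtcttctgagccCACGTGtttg

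All 3 tested proteins of the H/ACA snoRNPs were higher in tumors. Nhp2, a core protein that binds the guide RNA, had 1877, 2248, 2391, 2276, 2164 and 2281 units in tumors (Dnmt+/- then Dnmt+/+ on diets #1, #2 and #3), against 884, 1013, 730.0, 844, 923 and 832 units in normal intestine. The lowest tumor array was thus well above the highest normal array. The fitted difference for Nhp2 was 1.34 ± 0.10 (log2, SE), 2.54-fold, with a limma adjusted p of 2.29e-05. Gar1, which helps to place and release the substrate RNA, had 1492, 1762 and 2301 units in tumors (lowest, median, highest) and 592, 698 and 942 units in normal intestine. The groups of Gar1 did not overlap either, and the difference was 1.34 ± 0.15 (2.52-fold, limma adjusted p = 0.00018). A second probe set of Gar1, dimmer than the filter, was higher in 2 pairs and lower in 3, with both arrays at a floor in 1. Nop10, the smallest core protein, differed by 0.57 ± 0.11 (1.48-fold, limma adjusted p = 0.00418), was higher in all 6 pairs and overlapped between tissues. With median scaling its difference was 0.25 and no longer passed (adjusted p = 0.101), nor did it without diet #2 (0.52, adjusted p = 0.0605).

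The core proteins of the C/D snoRNPs were also higher, 3 of 3. Nop56, a scaffold of the particle, had 529, 875 and 955 units in tumors and 239, 355 and 373 units in normal intestine. No normal array reached the lowest tumor array, and the difference was 1.30 ± 0.16 (2.46-fold, limma adjusted p = 0.00037). Fbl encodes fibrillarin, the methyltransferase itself, and had 1418, 2086 and 2315 units in tumors and 1028, 1165 and 1204 units in normal intestine. Its groups were also separate, with a smaller difference of 0.80 ± 0.09 (1.74-fold, limma adjusted p = 0.000188). Nop58, the partner of Nop56, was read from a probe set of a class that can match related sequences, as were Mybbp1a, Bysl and Polr1b. It was higher in all 6 pairs (0.72 ± 0.14, limma adjusted p = 0.00342), but its highest normal arrays lay within the tumor range, and without diet #2 its adjusted p was 0.0508. Nolc1, a chaperone of snoRNPs, was dimmer than the filter. With no filter (9840 features) it was higher in 4 pairs, with both arrays at a floor in the other 2. As 4 of its 6 normal arrays and 2 of its 6 tumor arrays were at a floor, its fitted difference (1.02, limma adjusted p = 0.0321) has no measured size, and without diet #1, an alternative chosen after seeing the data, the adjusted p was 0.0909.

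**Figure D2:**
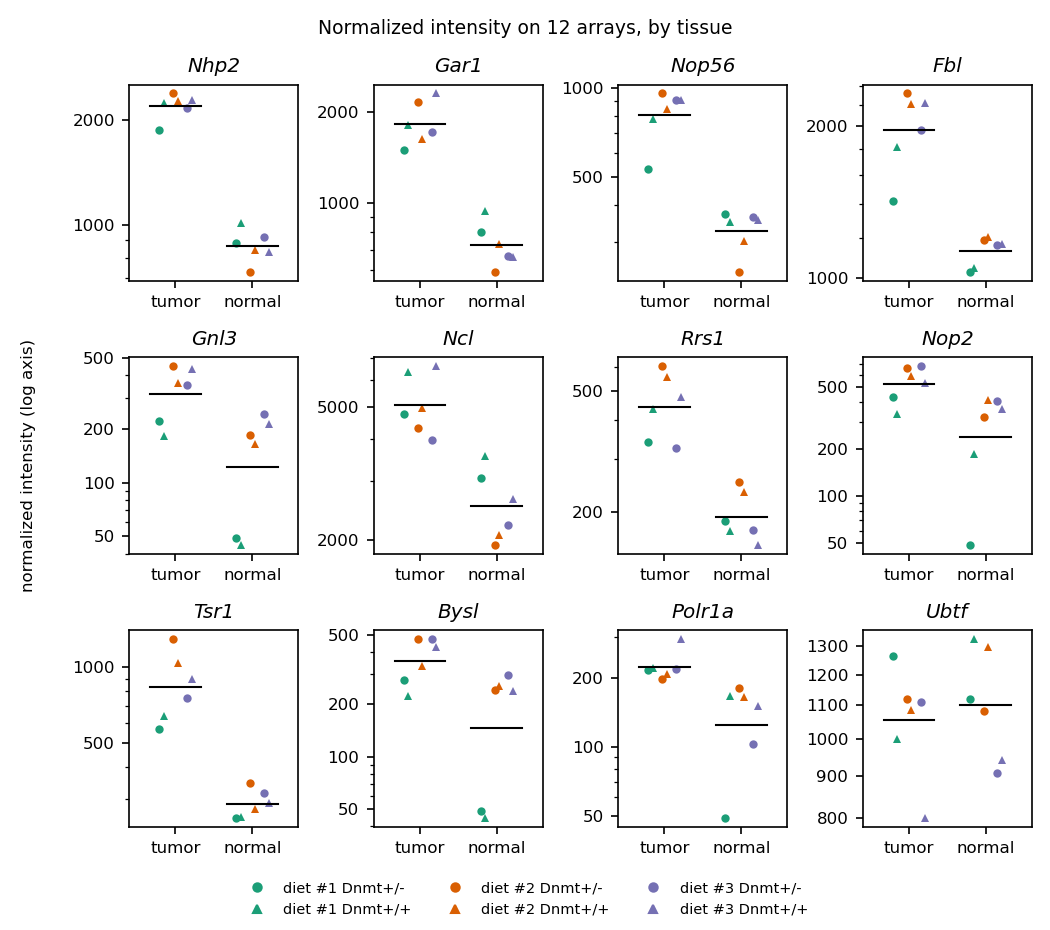
Normalized intensity (log axes, each panel with its own range) of 12 factors on the 6 tumor and 6 normal intestine arrays; colours mark diets, symbols genotypes, and lines the mean of the log2 values. Nhp2, Gar1, Nop56, Fbl, Ncl, Rrs1, Tsr1 and Polr1a have no overlap between tissues, Ubtf overlaps throughout, and normal values near 50 for Gnl3, Bysl, Nop2 and Polr1a are at the floor.

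Nucleolar chaperones and regulators were higher in tumors in 5 of 5 cases. Gnl3 encodes nucleostemin, a GTP-binding nucleolar protein known from stem and cancer cells. It had 222, 182, 449.5, 362, 351 and 432 units in tumors and 48.9, 44.8, 185, 165, 242 and 214 units in normal intestine, in the order of diets and genotypes given above. The normal arrays of diet #1 were at the floor, and on each diet both tumor arrays were above both normal arrays. The difference was 1.36 ± 0.20 (2.57-fold, limma adjusted p = 0.000955), and 0.98 without diet #1. Ncl, nucleolin, which binds and packages the precursor RNA, had 3990, 4863 and 6611 units in tumors and 1935, 2433 and 3567 units in normal intestine. Npm1, nucleophosmin, a histone and assembly chaperone, had 3827, 5297 and 5835 units in tumors and 1810, 2515 and 3820 units in normal intestine. For both genes the tissues did not overlap, narrowly so for Npm1, and the folds were 2.01 (limma adjusted p = 0.0002) and 1.92 (limma adjusted p = 0.000199). Ddx21, an RNA helicase that acts with RNA polymerase I, was 1.72-fold higher (limma adjusted p = 0.000247), and Mybbp1a, a Myb-binding nucleolar protein, was 1.84-fold higher (limma adjusted p = 0.00462) with 1 normal array at the floor. Each of these was higher in 6 of 6 pairs. A probe set of Mybbp1a dimmer than the filter was higher in 2 pairs and lower in 2, with both arrays at a floor in 2. Another was higher in 1 pair, with both arrays at a floor in 5.

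Of 7 large subunit factors tested, 6 were higher. Rrs1, a regulator of ribosome synthesis, had 325, 456 and 601 units in tumors and 156, 181 and 250 units in normal intestine. The ranges were separate, with a difference of 1.20 ± 0.11 (2.30-fold, limma adjusted p = 8.31e-05). Nop2, a methyltransferase of large subunit RNA whose promoter is shown above, had 337, 561 and 678 units in tumors and 48.9, 342 and 415 units in normal intestine. Its lowest normal value was the diet #1 Dnmt+/- array at the floor; the difference was 1.14 ± 0.34 (2.20-fold, limma adjusted p = 0.0266) over all arrays and 0.71 without diet #1 (adjusted p = 0.00936). Pes1, a subunit of the PeBoW complex needed for large subunit maturation, was 1.50-fold higher with no overlap (0.59 ± 0.14, limma adjusted p = 0.00913). Nip7 was 1.61-fold higher (limma adjusted p = 0.00147).

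The 2 other large subunit factors that passed did so near the threshold. Rrp1b differed by 0.72 ± 0.23 (limma adjusted p = 0.0388), and Ebna1bp2, the counterpart of yeast Ebp2, by 0.60 ± 0.19 (limma adjusted p = 0.039), with Ebna1bp2 higher in 5 of 6 pairs. Each lost the call in 8 of the 12 fits that left out 1 array, and Nop2 did in 5. Bop1, another PeBoW subunit, did not pass (0.04 ± 0.38, limma adjusted p = 0.948). Its tumor values were 47.4, 398 and 487 units and its normal values 165, 283 and 470 units. The lowest tumor value was the diet #1 Dnmt+/- array, which was at the floor, and the other 5 pairs were higher in the tumor. Without that array the difference was 0.46 (limma adjusted p = 0.0227). A second probe set of Bop1, dimmer than the filter, was lower in the tumor in 4 pairs, with both arrays at a floor in 2. With no filter it differed by -0.21 and did not pass. Surf6 and Wdr12, dimmer than the filter, differed by 0.18 ± 0.14 and 0.20 ± 0.21 with no filter (limma adjusted p = 0.449 and 0.588).

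Of 6 small subunit factors tested, 4 were higher, with the largest difference of the 29 in Tsr1. Tsr1, which acts late on the small subunit precursor in the cytoplasm and whose promoter is shown above, had 566, 639, 1291, 1037, 754 and 899 units in tumors and 252, 253, 344, 273, 315 and 288 units in normal intestine. Every tumor array was above every normal array, and the difference was 1.54 ± 0.13 (2.91-fold, limma adjusted p = 5.05e-05). Bysl, bystin, had 223, 378 and 473 units in tumors and 44.8, 240 and 294 units in normal intestine. Both diet #1 normal arrays of Bysl were at the floor; the difference was 1.28 ± 0.28 (2.42-fold, limma adjusted p = 0.00623), and 0.71 without diet #1 (adjusted p = 0.00643). Wdr43 and Imp4, parts of the small subunit processome that cuts the precursor RNA, were 1.43-fold and 1.40-fold higher (limma adjusted p = 0.00937 and 0.00614), although Imp4 missed the threshold without diet #2 (adjusted p = 0.0506). A second probe set of Wdr43 differed by 0.69 and passed too, with every probe set tested (adjusted p = 0.00568).

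The other 2 small subunit factors did not pass. Rrp9, a processome protein, had 593, 699 and 882 units in tumors and 619, 639 and 768 units in normal intestine. It was higher in 3 pairs and lower in 3 (0.10 ± 0.10, limma adjusted p = 0.454). Krr1, also of the processome, differed by 0.27 ± 0.11 (limma adjusted p = 0.0759), with all 4 diet #1 arrays at 50 in the deposited values. On diet #2 its deposited intensities were 1434 and 1452 in tumors and 873 and 805 in normal intestine, and on diet #3 they were 1360 and 1188 in tumors and 1078 and 915 in normal intestine. Every tumor value of Krr1 on diets #2 and #3 was above every normal value, and without diet #1 the difference was 0.42 (limma adjusted p = 0.0307). A second probe set of Krr1 differed by 0.19 and did not pass (adjusted p = 0.621).

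**Figure D3:**
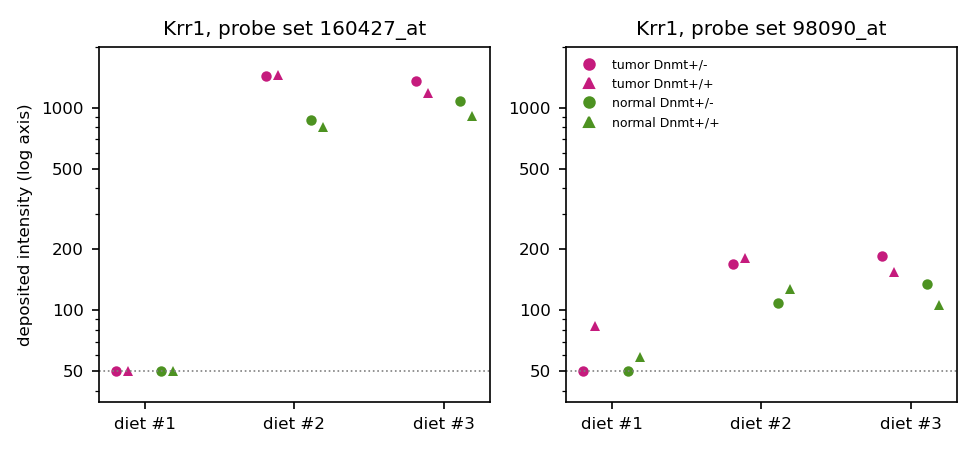
Deposited intensity (log axis) of both Krr1 probe sets by diet, with tumor values left of normal values and symbols for genotype; the dotted line is the floor of 50. The brighter probe set is at 50 on all 4 diet #1 arrays and between 805 and 1452 on the others.

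RNA polymerase I genes passed for 2 of 5 members. Polr1a, the largest catalytic subunit, had 197, 217 and 295 units in tumors and 48.9, 158 and 180.0 units in normal intestine. The ranges did not overlap, and 1 normal array was at the floor. The difference was 0.84 ± 0.26 (1.80-fold, limma adjusted p = 0.0319), and it was 0.63 without diet #1 (adjusted p = 0.0576). A second probe set of Polr1a, dimmer than the filter, was lower in the tumor in 3 pairs, with both arrays at a floor in 3. With no filter it differed by -0.25 and did not pass. Polr1d, shared with RNA polymerase III, had 417, 488 and 707 units in tumors and 359, 397 and 439 units in normal intestine. It was higher in 5 of 6 pairs (0.39 ± 0.14, limma adjusted p = 0.0485), with an adjusted p of 0.0847 when the code was a block. Polr1c, shared in the same way, had 517, 630 and 818 units in tumors and 424, 499 and 612 units in normal intestine. It was higher in 6 of 6 pairs without passing (0.35 ± 0.13, limma adjusted p = 0.0568), and with the code as a block its adjusted p was 0.0424. A second probe set of Polr1c, with 1 tumor and 2 normal arrays at a floor, differed by 0.59. It did not pass with every probe set tested (limma adjusted p = 0.256). The call for Polr1a was lost in 8 and that for Polr1d in 9 of the 12 fits that left out 1 array.

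Polr1b and Ubtf did not pass. Polr1b, the other large catalytic subunit, had 289, 345 and 454 units in tumors and 262, 342 and 367 units in normal intestine (0.08 ± 0.10, limma adjusted p = 0.55). Ubtf, which binds ribosomal RNA genes and recruits the polymerase, had 1266, 1001, 1121, 1086, 1111 and 800.0 units in tumors and 1119, 1326, 1082, 1296, 909 and 941 units in normal intestine. It was higher in the 3 Dnmt+/- pairs and lower in the 3 Dnmt+/+ pairs, and over all arrays differed by -0.06 ± 0.11 (limma adjusted p = 0.701).

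The tumor difference of the factors as a group was present in every pair. Their median difference was 0.65 in both diet #1 pairs, 0.87 (Dnmt+/-) and 0.73 (Dnmt+/+) on diet #2, and 0.56 (Dnmt+/-) and 0.64 (Dnmt+/+) on diet #3. Between 24 and 28 of the 29 factors were higher in each pair, while 46% to 50.4% of all features were. Fitted within genotypes, 17 factors were higher in Dnmt+/- (10.1% of all features) and 14 in Dnmt+/+ (8.62%), with medians of 0.74 in each. Fitted within diets, 13 were higher on diet #1 (8.22% of all features), 16 on diet #2 (10.1%) and 14 on diet #3 (8.95%).

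No factor's tumor difference passed the test of a difference between genotypes or diets, which does not show that the differences were alike. The SE of a factor's interaction was 0.18 to 0.73 (log2, median 0.24) for genotype and 0.17 to 0.95 (median 0.26) for diet, which limits the size of a difference that these tests could detect. In the tissue by genotype interaction, 0 of 29 factors and 0 of 6400 features passed, and 1 factor, Ubtf, had an unadjusted p under 0.05 (0.47 ± 0.18, limma adjusted p = 1). Of the 6400 features, 179 had an unadjusted limma p under 0.05 in that interaction. In the tissue by diet interaction (diet #3 minus diet #2), 0 factors and 0.344% of all features passed. There, an unadjusted limma p under 0.05 was found for 657 of the 6400 features and for 4 factors. These were Nop58 (-0.79 ± 0.21, limma adjusted p = 0.293), Polr1d (-0.73 ± 0.21, limma adjusted p = 0.313), Npm1 (-0.47 ± 0.20) and Ebna1bp2 (-0.94 ± 0.39, both with a limma adjusted p of 0.482). Each of the 4 had a smaller tumor difference on diet #3 than on diet #2 as measured. In normal intestine all 4 were lower on diet #2 than on diet #3. Nop58 had 193 and 172 units there on diet #2 against 321 and 379 on diet #3, and Npm1 had 2514 and 2516 against 3438 and 3820. Those diet #2 normal arrays also held the high pancreatic markers, whose part in these differences was not tested.

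Across both tissues, 0 factors differed between Dnmt+/- and Dnmt+/+, where 0.0156% of all features did. The median difference of the factors (Dnmt+/- minus Dnmt+/+) was -0.09, against -0.01 for all features. An unadjusted limma p under 0.05 was found for 292 of the 6400 features and for 3 factors. All 3 were lower in Dnmt+/-: Ncl (-0.32 ± 0.11), Mybbp1a (-0.46 ± 0.18) and Imp4 (-0.26 ± 0.10), each with a limma adjusted p of 0.917. Between diet #3 and diet #2, 0 factors and 4.28% of all features passed. An unadjusted limma p under 0.05 was found for 1387 of the 6400 features and, a similar share, for 6 of the 29 factors. Nop10 (-0.55 ± 0.14, limma adjusted p = 0.0578) and Rrs1 (-0.55 ± 0.14, limma adjusted p = 0.059) were the nearest, followed by Polr1b (0.41 ± 0.12, limma adjusted p = 0.0887) and Nop58 (0.54 ± 0.17, limma adjusted p = 0.101). With the code as a random block these 4 passed, with limma adjusted p of 0.0319 for Nop10, 0.028 for Rrs1, 0.0452 for Polr1b and 0.0484 for Nop58, while 9.28% of all features were called. The correlation within codes in that fit was -0.16, which narrows the error of differences between codes. The arrays showed no pairing by code beyond their shared diet and genotype, although this design could reveal little of it. Imp4 and Npm1, the other 2, had limma adjusted p of 0.13 and 0.23.

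Genes around these factors were counted from lists by function. Of 56 tested genes of a wider list of ribosome assembly (123 listed, 72 on the array), 22 were higher and 0 lower in tumors, with a median of 0.40 (11 were higher without diet #2). The 3 genes named by size, all of which act on precursor RNA, were Utp4 (2.02-fold, limma adjusted p = 0.00038), Las1l (limma adjusted p = 0.00919) and Rrp7a (limma adjusted p = 0.0212). No array of Utp4 was at a floor. Las1l and Rrp7a each had 2 of 6 normal arrays there, which set their fitted folds of 2.33 and 2.16; without diet #1 the folds were 1.58 and 1.37, and both passed. Among 23 cytosolic ribosomal proteins, 16 were higher and 1 lower with a median of 0.38, led by Rpl13a (1.81-fold), Rps19 (1.67-fold) and Rpl6 (1.53-fold). That count was 5 with median scaling and 9 both with the values as deposited and without diet #2. Of 10 subunits of RNA polymerases II and III, 6 were higher and 0 lower (2 higher without diet #2), with Polr2f, Polr2h and Polr2d 1.71-fold, 1.52-fold and 1.50-fold higher. That list is not separate from RNA polymerase I, which shares some of its subunits, Polr2f and Polr2h among them.

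Of 20 cell cycle genes, 17 were higher and 0 lower with a median of 0.76 (11 higher without diet #2), including Cks1b (2.63-fold, with no array at a floor), Kif20a and Rrm1. Kif20a had 2 normal arrays at a floor, and Rrm1 had 1 tumor and 1 normal array there; their fitted folds of 3.02 and 3.37 became 2.30 and 5.40 without diet #1. Myc itself, whose protein activates many assembly factor genes, had 47.4, 248 and 279 units in tumors and 44.8, 86.8 and 131 units in normal intestine. Its ranges overlapped through a tumor array at the floor, and it was 2.31-fold higher (limma adjusted p = 0.00473). In the Myc and Max network of 8 tested genes, 2 were higher, the other being Mycl (1.84-fold, limma adjusted p = 0.0119), and 2 were lower. The lower ones were Mxi1, an antagonist of Myc (-0.80 ± 0.10, limma adjusted p = 0.000402), and Max, the shared partner (-0.53, limma adjusted p = 0.00542). Without diet #1, Mycl no longer passed (limma adjusted p = 0.0622), while Myc, Mxi1 and Max did. Of 5 tested genes of nucleolar stress and p53, 4 were lower and 0 higher, with a median of -0.46. They were Sesn1 (-1.37 ± 0.16), Mdm2, which targets p53 for degradation (-0.68 ± 0.16), the cyclin kinase inhibitor gene Cdkn1a (-0.46 ± 0.10), and Mdm4 (-0.30). Without diet #1, Sesn1 and Cdkn1a still passed, but Mdm2 and Mdm4 did not (limma adjusted p = 0.0537 and 0.154).

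**Figure D4:**
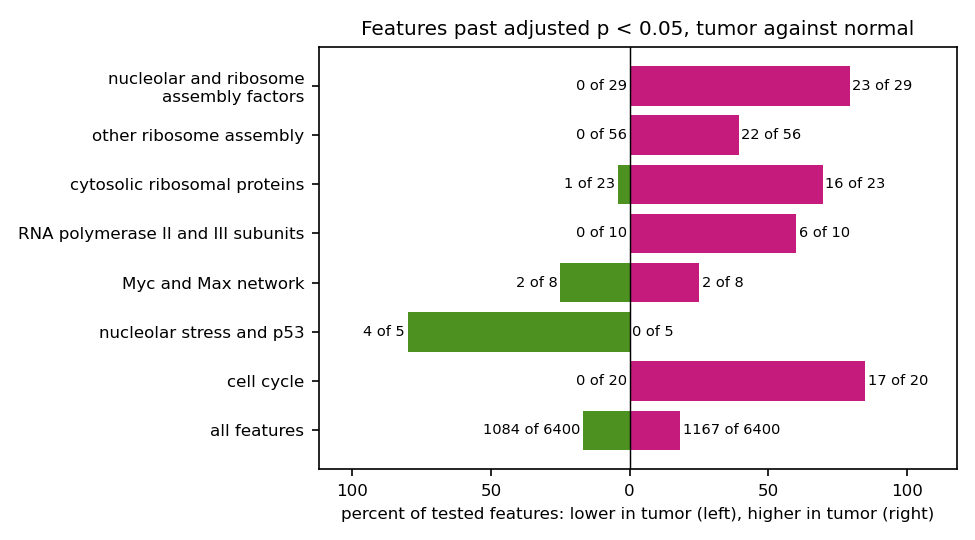
Percent of the tested genes of each list that were higher (right) or lower (left) in tumors at a limma adjusted p under 0.05, with counts beside the bars. The factors described here (23 of 29 higher, 0 lower) and cell cycle genes (17 of 20 higher) stand beside 1167 higher and 1084 lower of all 6400 features.

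Markers of other cells moved with tissue as well, and their part in the differences of the factors was not tested. All 5 tested mast cell markers were higher in tumors, with summed levels of 8058 to 28861 in tumors and 504 to 933 in normal intestine. Among them, Mcpt2 spanned 3233 to 11559 units in tumors and 44.8 to 97.1 units in normal intestine. Lymphocyte markers summed to 22330 to 36250 in tumors and 28643 to 40201 in normal intestine (0 of 6 higher, 2 lower). Smooth muscle markers summed to 13326 to 21374 in tumors and 13002 to 26838 in normal intestine (0 of 7 higher, 1 lower). Of 10 pancreatic acinar markers, 0 were higher and 1, Reg1, was lower in tumors.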

How the data were processed

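Total RNA of 6 tumors and 6 normal intestines was hybridised to Affymetrix MG_U74Av2 arrays of 1 colour (12 arrays), as the labels state. Each deposited value is the linear intensity of a probe set, and how the probes were summarised is not stated in the sources used here. Diet #1 arrays were unscaled with a floor of 50, and the deposited intensities of the other arrays have a mean of 1000; diet and this format cannot be told apart. The 66 control probe sets were removed, the other 12422 quantile-normalized, values below the 20th percentile (44.8) raised to it, and log2 taken. The dimmest 40% of probe sets by mean were dropped and a gene was read from its brightest remaining one, which left 6400 features, 5648 with a gene name. The normal arrays' mean of every tested factor was past that filter (0 exceptions), and 21 of the 29 had no array at a floor.

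The platform annotation names 1 gene for 10833 probe sets, more than 1 for 396 and no gene for 1193; 10817 matched RefSeq (GRCm38.p6) by Entrez ID. Linear models of tissue, genotype and diet, also with interactions, were fitted in R 4.3.3 with limma 3.58.1, and p-values adjusted by Benjamini-Hochberg over all features at 0.05; the fits were checked on simulated data. The members and lists were chosen with earlier results of these data known. By the rule for named genes, levels are given for the 2 members of each role with the largest tumor difference, for members that did not pass, and for Myc, and other lists are shown by up to 3 genes past the threshold; further genes were chosen after their values were seen.

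Deviations from tissue means correlated at 0.463 to 0.677 within the 6 codes, which the titles give. Arrays of a code share diet, file format and genotype. With diet and genotype removed, the correlations were -0.574 to -0.38, where unpaired arrays give -0.43 in this design. The values thus show no pairing beyond these shared traits. With 1 code per diet and genotype, most of any pairing is removed along with them, so the check cannot exclude it. Block values still stand beside results whose call they change. Alternatives were median scaling, deposited values, other floors and filters, every probe set, trended robust variances, the code as a block, and leaving out arrays or diets. Leaving out diet #1 with no filter was added for Nolc1 and Wdr12 after the data were seen.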

Additional observations from a re-analysis of the deposited data

Results flagged for a closer look

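Of 58 groups of 6 arrays checked (29 factors in each tissue), 6 held an array far from its neighbours by Dixon's test. The test's chance rate of about 1 in 20 holds for like arrays. It does not apply here, since each group spans 3 diets and both genotypes and some diet #1 values are at the floor. The diet #1 Dnmt+/- arrays account for 4 of the 6 groups. The tumor array of that pair was lowest for Bop1 (47.35 units at the floor, with the other tumors at 286.6 to 486.9) and for Nop56 (529.2, others 783.3 to 955.4). Its normal array was lowest, at the floor, for Rrp1b (48.93, others 132.8 to 221) and Nop2 (48.93, others 187.3 to 414.6). The diet #2 Dnmt+/+ normal array was lowest for Polr1b (262.5, others 333.8 to 367.1), and the diet #3 Dnmt+/+ tumor array was highest for Polr1a (294.7, others 197.5 to 221.8).

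With no filter on dim probe sets, the tumor difference of Wdr12, the third subunit of the PeBoW complex, differed between diet #3 and diet #2 by a fitted 1.42 (log2, limma adjusted p = 0.00569 over 9840 features). Its deposited intensities on diet #3 were 137.5 and 122.7 in tumors and 50.6 and 32.9 in normal intestine, and on diet #2 they were 65.0 and 58.6 in tumors and 84.0 and 70.0 in normal intestine. The tumor arrays were thus above the normal arrays on diet #3 and below them on diet #2, at levels near the floor. All 4 diet #1 arrays were at 50 and 1 normal array of diet #3 was at the floor, so the fitted size is not a measured one and the small error of the fit includes arrays that could not vary. Without diet #1, an alternative chosen after seeing the data, the difference did not pass (limma adjusted p = 0.08).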

How the results depend on the processing

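Of 660 results for the 29 factors in tumor against normal over 23 alternatives, 587 kept their direction and their side of the threshold, 56 lost the call, 10 gained it and 7 changed sign. Of the 23 factors that passed, 15 passed in every alternative in which they were tested, and 18 passed in all 12 fits without 1 array. The number higher in tumors was 16 to 24 over the alternatives and 18 to 23 with 1 array left out, with 0 lower in each. In the main fit, 18.2% of all features were higher. That share also changes with the setting and is not given here for each alternative. Median scaling moved the median of all features by -0.10 (21 factors higher, median 0.62), and deposited values moved it by 0.13 (24 higher, median 0.85). The sign changed for factors that had not passed: Ubtf was 0.026 with deposited values, Rrp9 was -0.025 without diet #2, and Bop1 was -0.21, -0.036, -0.098, -0.073 and -0.099 without tumor replicate 2, tumor replicate 3, normal replicate 4, tumor replicate 5 and normal replicate 6, and 0.46 with the call gained without tumor replicate 1.

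With the code as a replicate block, 23 factors were higher in tumors, 22 of them among the 23 of the fit without it, and 4 differed between diets #3 and #2, against 0 without it. Between these diets 2 factors (both lower on diet #3) passed with a floor at the 40th percentile, 2 (both lower) with the lowest 60% removed, and 1 (lower) with trended robust variances. Such small counts are not read as results about the factors, since 4.28% of all features passed for these diets in the main fit. The share of all features under each of these settings is not given here. In the tissue by diet interaction, 1 gene, Wdr12, passed with no filter, under which it is tested. Leaving out 1 array gave 0 calls among the factors in both diet comparisons, and 0 were called for genotype or its interaction in any alternative. No diet #3 against diet #2 comparison can be made without diet #2. Without diet #2, 1365 features were called for tissue, against 2251 with it, and fewer genes were higher in other lists (ribosome assembly 11 against 22, cell cycle 11 against 17, ribosomal proteins 9 against 16, polymerase II and III subunits 2 against 6, Myc and Max network 1 against 2, enterocyte markers 0 against 1), but 2 pancreatic markers against 0. Ribosomal proteins gave 5 with median scaling and 9 with deposited values, mast cell markers 3 against 5 with the lowest 60% removed, and enterocyte markers 0 with median scaling or no filter. The Myc and Max network gave 1 without diet #1 or with the lowest 60% removed. Where no value is named beside a change, the cause was not tested. Values at the floor are bounds, so folds of Gnl3, Bysl, Nop2, Polr1a, Rrp1b and Mybbp1a depend on it, as do those of Nolc1, Wdr12, Las1l, Rrp7a, Rrm1, Kif20a and Myc. In an alternative chosen after seeing the data (no filter, without diet #1), neither Nolc1 (1.26) nor the diet difference of Wdr12 (1.98) passed.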
